A study of Mus musculus with 16 samples.

Results

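The 9 genes described here encode cardiac transcription factors: Nkx2-5, Gata4, Gata6, Tbx5, Tbx20, Mef2c, Hand2, Myocd and Nr2f2. They were taken by name from 17771 genes that could be tested in HL-1 cells, a mouse cardiomyocyte line of atrial origin that keeps beating in culture. Array probes were matched to gene symbols through their RefSeq accession, and each gene was read from its probe with the highest mean signal. All 9 genes passed the filter on dim probes, and their probes were well above background on 16 of 16 arrays. RNA was measured on 16 single-colour Agilent arrays, 4 for each of 4 labels. Cells labelled Dex+E2 received 100 nM of the synthetic glucocorticoid dexamethasone together with 10 nM E2 (estradiol), cells labelled Dex received 100 nM dexamethasone, cells labelled E2 received 10 nM estradiol, and cells labelled Vehicle received PBS. All 4 groups were grown in Claycomb medium and treated for 6 h. HL-1 is 1 line derived from a female, per the labels, and a transformed line grown in culture differs from atrial muscle in the animal. The series design describes independent experiments, and the series title names antagonism between glucocorticoids and estrogen as the question.

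Heart muscle identity rests on a small set of DNA-binding proteins that act together on the same enhancers. NKX2-5 is a homeodomain factor, GATA4 and GATA6 are zinc finger factors, TBX5 and TBX20 belong to the T-box family, MEF2C is a MADS-box factor and HAND2 a basic helix-loop-helix factor. Myocardin, encoded by Myocd, is a coactivator of serum response factor and does not bind DNA alone, and NR2F2 (COUP-TFII) is an orphan nuclear receptor that marks atrial muscle in the mouse. Dexamethasone acts through the glucocorticoid receptor, encoded by Nr3c1, which binds DNA and switches on genes such as Per1, a clock component, and Klf15, a zinc finger regulator of metabolism.

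Promoter letters were read first, because the glucocorticoid receptor and several of the 9 factors bind known short motifs. RefSeq windows of build GRCm38.p6, running from 250 bases before to 50 bases after a gene's start, were on hand for 5 of the 9 genes in 7 windows. Searches on both strands used AGAACA, the 6-base unit recognised by the glucocorticoid receptor, AGATAA for GATA factors and AAGTG for NKX2-5, none of which overlapped another in the windows shown. Among all 32851 windows of the same length, 19% held AGAACA, 11.2% held AGATAA and 46.4% held AAGTG. Facing AGAACA units 3 bases apart occurred in 3 windows of that whole table (0.00913%) and in 0 of the 7. The Hand2 window (chr8:57320733-57321032, plus strand) is shown because it was the only one of the 7 with the GATA letters. The Mef2c window (chr13:83573357-83573656, plus strand) is 1 of 3 for that gene and is shown because it held the glucocorticoid receptor letters as well as AAGTG, as did 2 of the 3. The Nr2f2 window (chr7:70366697-70366996, minus strand) held none of the 3 motifs, as did the Nkx2-5 and Tbx20 windows. Capitals mark matches on either strand, and the sequences are RefSeq's, 5′ to 3′ along the gene.
Hand2: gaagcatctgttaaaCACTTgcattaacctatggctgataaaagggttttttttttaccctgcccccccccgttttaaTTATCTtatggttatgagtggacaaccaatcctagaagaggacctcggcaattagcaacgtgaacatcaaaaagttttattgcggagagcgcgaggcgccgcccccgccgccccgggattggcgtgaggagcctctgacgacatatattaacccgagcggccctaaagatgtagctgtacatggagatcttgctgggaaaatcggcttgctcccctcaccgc
Mef2c: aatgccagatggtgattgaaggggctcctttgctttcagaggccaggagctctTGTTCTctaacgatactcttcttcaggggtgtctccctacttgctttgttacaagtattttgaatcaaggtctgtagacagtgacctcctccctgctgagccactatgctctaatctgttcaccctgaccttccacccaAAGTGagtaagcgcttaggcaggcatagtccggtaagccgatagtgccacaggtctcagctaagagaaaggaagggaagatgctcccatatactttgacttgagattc
Nr2f2: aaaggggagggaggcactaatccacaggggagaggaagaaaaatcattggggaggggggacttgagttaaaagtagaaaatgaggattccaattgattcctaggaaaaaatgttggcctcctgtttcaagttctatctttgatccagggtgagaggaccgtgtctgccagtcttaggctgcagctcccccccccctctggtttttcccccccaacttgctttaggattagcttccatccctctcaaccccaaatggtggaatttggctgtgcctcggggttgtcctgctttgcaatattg
A match is a run of letters and not a measured binding site. Gata4, Gata6, Tbx5 and Myocd had no window to search.

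Per1 divided the arrays before any factor was compared. Its level, which like all levels here is the log2 processed signal relative to the array's own 75th percentile, was between 1.75 and 1.99 on 8 arrays and between -1.29 and -0.75 on the other 8 (probe A_52_P79889). Klf15 divided the same arrays, at 2.14 to 2.56 on the Per1-high arrays and -0.34 to 0.62 on the Per1-low arrays. Of the 8 Per1-high arrays, 3 were labelled Dex+E2 (1, 2 and 4), 3 Dex (1, 2 and 4), 1 E2 (4) and 1 Vehicle (4). On 4 arrays Per1 therefore went against the label: it was low on the arrays labelled Dex+E2 3 and Dex 3, and high on those labelled E2 4 and Vehicle 4. Labels were kept as given, and each comparison of labels is reported on all 16 arrays and again on 12, without those 4. Because those 4 arrays were left out by a measured glucocorticoid target, the p-values of the 12-array fit are no independent test of a glucocorticoid response. The Per1-high and Per1-low sets come from the data and not from the labels, so they are described by range, median and overlap, with no test. Between 58.6% and 65.6% of the 41174 probes per array were well above background, and 0 spots were saturated.

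The line was checked against markers of the cells it could hold. Of 8 atrial cardiomyocyte markers, 7 were well above background on all 16 arrays, and the atrial ligand gene Bmp10 was not well above background on any. Cdh5 and Pecam1, which define endothelium, and Ptprc and Adgre1, which define leukocytes and macrophages, were also not well above background on any array. Other markers of the same lists were: the endothelial Kdr and the macrophage marker Cd68 on 16 arrays, and Csf1r on 10. All 4 smooth muscle markers and 4 of 6 fibroblast markers were well above background on all 16 arrays. The cardiomyocyte markers summed to 558 to 668 times the array's 75th percentile on Per1-high arrays and 573 to 656 times on Per1-low arrays. In a culture measured in bulk, fewer cells of a type and less RNA per cell cannot be told apart.

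In vehicle-treated cells the homeodomain gene Nkx2-5 averaged 5.02 ± 0.24 (log2 level relative to the 75th percentile, SD, n = 4). Gata6 averaged 3.22 ± 0.39 and Tbx5, a T-box gene required for atrial and conduction tissue, averaged 3.32 ± 0.08. The atrial marker Nr2f2 averaged 2.88 ± 0.26. Hand2, known for its part in ventricle and outflow tract formation, averaged 2.03 ± 0.28. Myocd averaged 2.14 ± 0.24, Tbx20 averaged 1.87 ± 0.11 and Mef2c averaged 1.03 ± 0.17. These means include the array labelled Vehicle 4, without which Gata6 averaged 3.04 ± 0.19 (n = 3). These 8 genes lay above the 75th percentile on 16 of 16 arrays. Gata4 was the only member below it, at -1.20 ± 0.20 in vehicle-treated cells and between -1.66 and -0.78 over all 16 arrays. A level depends on how well a probe hybridises, so these values are not an order of abundance: Gata6 read 2.89 to 3.82 from its brightest probe and -1.34 to -0.04 from another probe that was also above background on every array.

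On all 16 arrays, 0 of the 9 factors passed the test in any of the 6 comparisons made with limma. These were Dex+E2 against Vehicle, against Dex and against E2, Dex against Vehicle, E2 against Vehicle, and the interaction of both agents. Neither did any other gene, since 0 of 17771 (0%) had an adjusted p under 0.05 in each comparison. An unadjusted p under 0.05 was reached by 989, 567, 714, 1933, 682 and 661 genes in these comparisons in that order, and by 0 of the 9 factors in each. On the 12 arrays without those against their label, Gata6 was the only one of the 9 that passed the test. It was higher by 0.72 in Dex+E2 and 0.70 in Dex against Vehicle, and by 0.81 in Dex+E2 against E2. Among all genes that fit called 460 (2.59%) for Dex+E2 against Vehicle, 432 (2.43%) for Dex against Vehicle and 343 (1.93%) for Dex+E2 against E2. It called 0 (0%) for Dex+E2 against Dex, E2 against Vehicle and the interaction, where 432, 1003 and 754 genes had an unadjusted p under 0.05, among them 0 of the 9 factors. In the comparisons with called genes, in the order above, 2823, 3512 and 1835 of 17771 genes had an unadjusted limma p under 0.05. Among them were 1, 2 and 4 of the 9 factors: Gata6 in each, Nr2f2 for Dex against Vehicle, and Gata4, Tbx5 and Hand2 for Dex+E2 against E2.

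**Figure D1:**
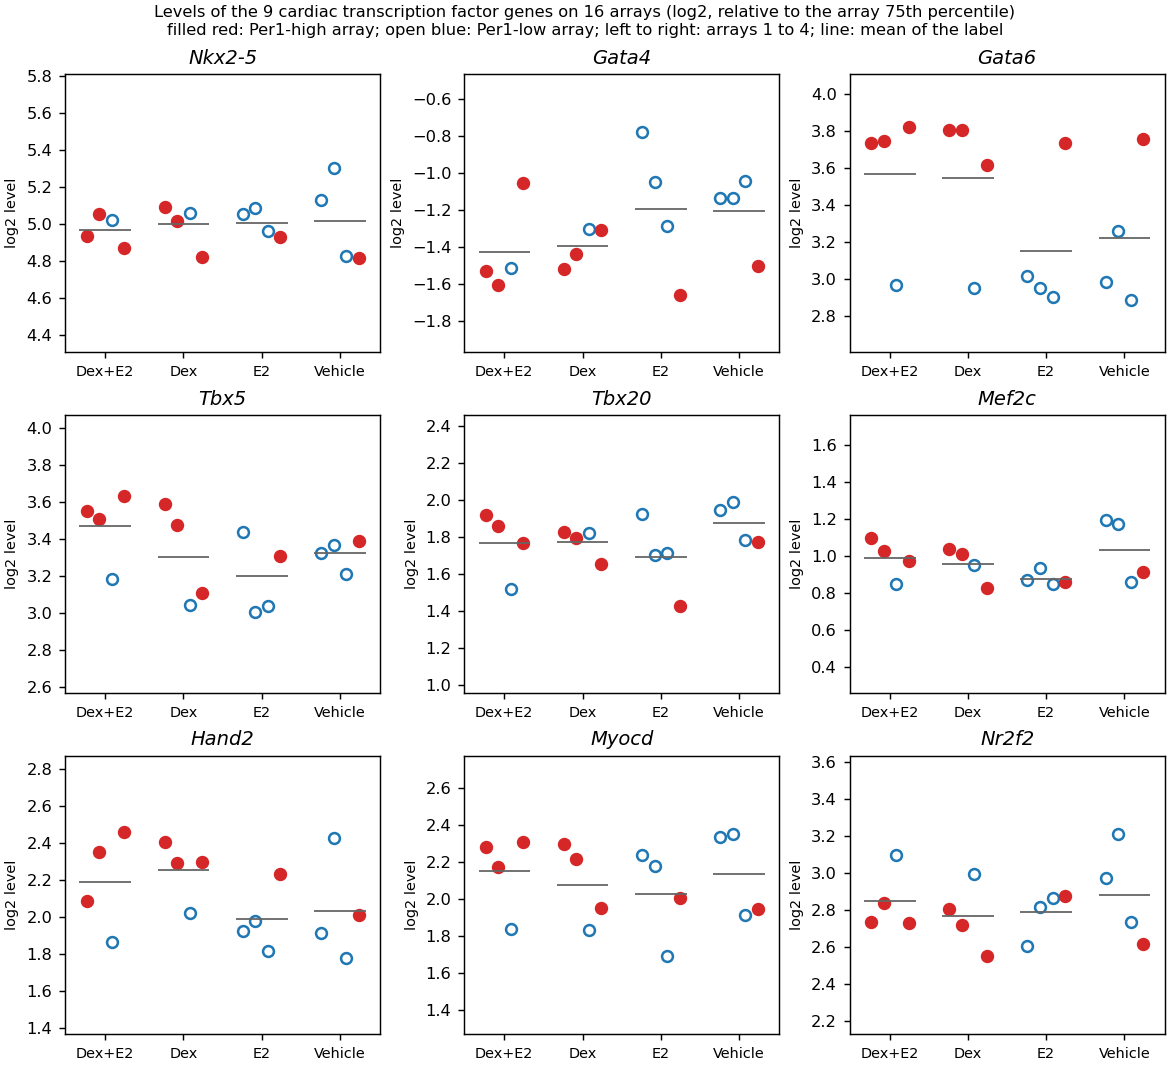
Level of each of the 9 genes on each of the 16 arrays (y axis, log2 relative to the array's 75th percentile; x axis, label, with Dex+E2, Dex, E2 and Vehicle from left to right and arrays 1 to 4 from left to right within a label). Filled red points are the 8 Per1-high arrays, open blue points the 8 Per1-low arrays and lines the mean of the 4 arrays of a label. In the Gata6 panel every red point (3.62 to 3.82) lies above every blue point (2.89 to 3.26), and in the other 8 panels the colours overlap.

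Gata6, a GATA factor of heart and endoderm, gave 3.74, 3.75, 2.97 and 3.82 on the arrays labelled Dex+E2 1 to 4 and 3.81, 3.81, 2.95 and 3.62 on Dex 1 to 4. It gave 3.02, 2.95, 2.91 and 3.74 on E2 1 to 4 and 2.98, 3.26, 2.89 and 3.76 on Vehicle 1 to 4. In each label 1 array stood apart from the other 3, the array numbered 3 among the Dex+E2 and Dex arrays and the array numbered 4 among the E2 and Vehicle arrays. These are the 4 arrays on which Per1 goes against the label, and with them the labels overlapped. The means over 4 arrays were 3.57 ± 0.40 for Dex+E2, 3.55 ± 0.41 for Dex, 3.15 ± 0.39 for E2 and 3.22 ± 0.39 for Vehicle. In the order Dex+E2, Dex, Vehicle and E2, no neighbouring labels differed beyond their SD. The limma difference was 0.35 ± 0.25 (SE) for Dex+E2 against Vehicle (adjusted p = 0.724), 0.32 ± 0.25 for Dex against Vehicle (adjusted p = 0.638) and 0.42 ± 0.25 for Dex+E2 against E2 (adjusted p = 1.00).

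Without the 4 arrays, Gata6 averaged 3.77 ± 0.05 in Dex+E2, 3.74 ± 0.11 in Dex, 2.96 ± 0.06 in E2 and 3.04 ± 0.19 in Vehicle (SD, n = 3 each). The levels with dexamethasone (3.62 to 3.82) then lay above all levels without it (2.89 to 3.26). The rise was 1.65-fold for Dex+E2 against Vehicle (log2 difference 0.72, 95% interval 0.51 to 0.94, limma adjusted p = 0.00196) and 1.62-fold for Dex against Vehicle (0.70, interval 0.49 to 0.91, adjusted p = 0.00280). For Dex+E2 against E2 it was 1.75-fold (0.81, interval 0.60 to 1.02, adjusted p = 0.000899). When each of the 12 arrays was left out in turn, Gata6 was called in 12 of 12 fits for each of these 3 comparisons. Differences were 0.65 to 0.83, 0.62 to 0.81 and 0.78 to 0.84, with limma adjusted p-values of at most 0.0118, 0.0220 and 0.00764. Fits without an array of a label outside the comparison keep its difference unchanged. All these fits use arrays chosen by Per1, so they show only that no single array carries the difference and are no independent support. Between the dexamethasone labels Gata6 differed by 0.03 (Dex+E2 minus Dex, interval -0.19 to 0.24), and between the labels without it by -0.09 (E2 minus Vehicle, interval -0.30 to 0.13). The interaction was 0.11 (interval -0.19 to 0.41, adjusted p = 0.968). These intervals bound the differences and do not show that estradiol was without effect.

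Arrays lay on 4 slides, each holding arrays of a pair of labels, so slide and label could be separated in part. On slide 1 Per1 went with the label on all arrays, and Gata6 was 3.81 and 3.81 on the arrays labelled Dex 1 and 2, against 2.98 and 3.26 on Vehicle 1 and 2, a difference of 0.68 (limma adjusted p = 0.120). Within slide 4, which holds an array against its label in each of its labels, Dex+E2 minus E2 was 0.08 (adjusted p = 1.00). Within slide 2 E2 minus Vehicle was -0.34 (adjusted p = 0.752), and within slide 3 Dex+E2 minus Dex was 0.46 (adjusted p = 0.428). Slides 2 and 3 each hold 1 array against its label. As values with no test, chosen after seeing the data, the differences without such arrays were 0.92 on slide 4 (1 array of each label), 0.09 on slide 2 and 0.12 on slide 3. The sign on slide 2 thus turned when Vehicle 4 was left out, and the difference on slide 3 was smaller without Dex 3. With slide as a block in the 12-array fit, Gata6 was higher by 0.89 for Dex+E2 against Vehicle (adjusted p = 0.0142), by 0.72 for Dex against Vehicle (adjusted p = 0.00636) and by 0.85 for Dex+E2 against E2 (adjusted p = 0.0164).

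**Figure D2:**
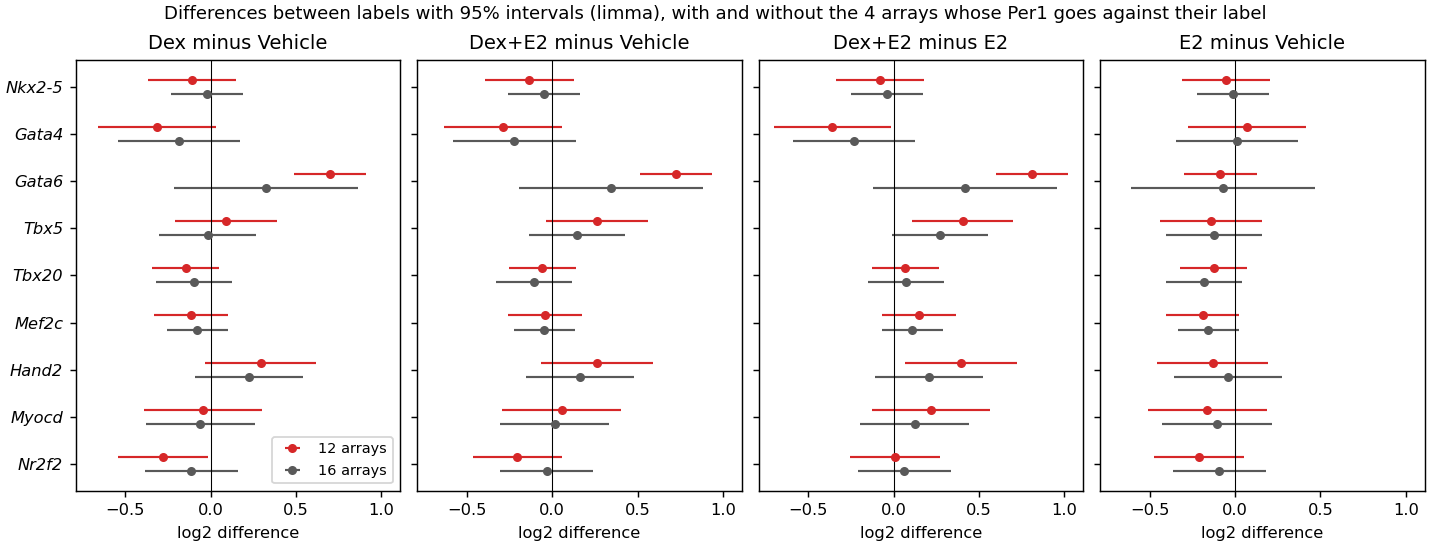
Log2 difference between labels for each of the 9 genes (x axis) with its 95% interval from limma, for Dex, Dex+E2 and E2 minus Vehicle and for Dex+E2 minus E2. Red points are the fit of 12 arrays without those whose Per1 goes against their label, grey points the fit of all 16 arrays. Gata6 stands at 0.70, 0.72 and 0.81 in the 12-array fit of the comparisons with dexamethasone and at -0.09 for E2 minus Vehicle.

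Hand2 gave 2.09, 2.35, 1.87 and 2.46 on Dex+E2 1 to 4 and 2.41, 2.29, 2.02 and 2.30 on Dex 1 to 4. It gave 1.92, 1.98, 1.82 and 2.23 on E2 1 to 4 and 1.92, 2.43, 1.78 and 2.01 on Vehicle 1 to 4. The labels overlapped, and Vehicle 2 gave the second highest of the 16 values. On 12 arrays Hand2 differed by 0.39 ± 0.15 for Dex+E2 against E2 (adjusted p = 0.336) and by 0.29 ± 0.15 for Dex against Vehicle (adjusted p = 0.307), and neither passed the test.

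Tbx5 gave 3.55, 3.51, 3.18 and 3.63 on Dex+E2 1 to 4 and 3.59, 3.47, 3.04 and 3.11 on Dex 1 to 4. It gave 3.44, 3.00, 3.04 and 3.31 on E2 1 to 4 and 3.32, 3.37, 3.21 and 3.39 on Vehicle 1 to 4. The 3 highest Dex+E2 arrays lay above every E2 and Vehicle array, while the Dex arrays spread from 3.04 to 3.59. On 12 arrays the difference was 0.40 ± 0.14 for Dex+E2 against E2 (adjusted p = 0.241) and 0.09 ± 0.14 for Dex against Vehicle (adjusted p = 0.771).

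Gata4, the closest relative of Gata6 in the set, gave -1.53, -1.61, -1.52 and -1.05 on Dex+E2 1 to 4 and -1.52, -1.44, -1.30 and -1.31 on Dex 1 to 4. It gave -0.78, -1.05, -1.28 and -1.66 on E2 1 to 4 and -1.14, -1.14, -1.04 and -1.50 on Vehicle 1 to 4. The spread was widest among the E2 arrays, and the labels overlapped. The high value on Dex+E2 4 was not seen with a second Gata4 probe, which gave -2.11 there, the lowest of that label. On 12 arrays Gata4 differed by -0.36 ± 0.16 for Dex+E2 against E2 (adjusted p = 0.448), by -0.32 ± 0.16 for Dex against Vehicle (adjusted p = 0.296) and by -0.29 ± 0.16 for Dex+E2 against Vehicle (adjusted p = 0.385). The sign was opposite to that of Gata6 in these 3 comparisons, and none passed the test for Gata4.

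**Figure D3:**
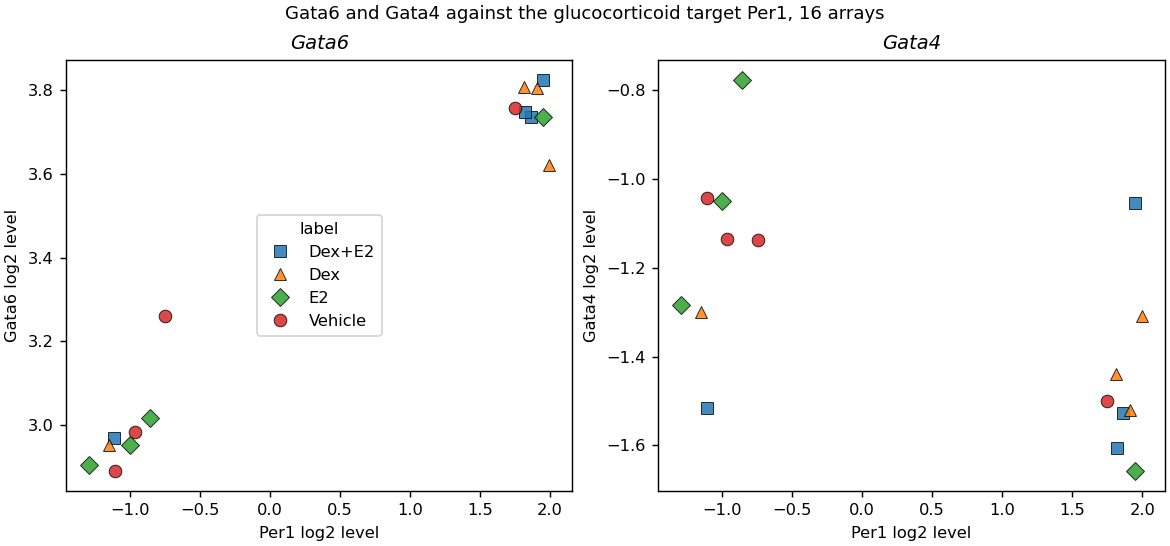
Levels of Gata6 (left) and Gata4 (right) against the level of Per1 on the 16 arrays (both axes log2 relative to the array's 75th percentile), with the label given by colour and shape. Per1 splits the arrays into 8 at 1.75 to 1.99 and 8 at -1.29 to -0.75. The right-hand group of arrays holds every Gata6 value from 3.62 to 3.82, while Gata4 values of the groups overlap.

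Nkx2-5, the homeodomain factor, gave 4.93, 5.05, 5.02 and 4.87 on Dex+E2 1 to 4 and 5.09, 5.02, 5.06 and 4.82 on Dex 1 to 4. It gave 5.05, 5.08, 4.96 and 4.93 on E2 1 to 4 and 5.13, 5.30, 4.83 and 4.82 on Vehicle 1 to 4. The Vehicle arrays held both the highest and the lowest of the 16 values, so every other label lay within the vehicle range. The 12-array difference was -0.13 for Dex+E2 against Vehicle (interval -0.39 to 0.13) and -0.11 for Dex against Vehicle (interval -0.37 to 0.15).

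Nr2f2 gave 2.73, 2.84, 3.10 and 2.73 on Dex+E2 1 to 4 and 2.81, 2.72, 2.99 and 2.55 on Dex 1 to 4. It gave 2.60, 2.81, 2.86 and 2.87 on E2 1 to 4 and 2.97, 3.21, 2.73 and 2.61 on Vehicle 1 to 4. The arrays labelled Dex+E2 3 and Dex 3 were the highest of their label, and Vehicle 4 was the lowest of its own. The fourth array against its label, E2 4, was the highest of the E2 arrays, at 2.87 beside 2.86 on E2 3. On 12 arrays Nr2f2 differed by -0.28 ± 0.12 for Dex against Vehicle (adjusted p = 0.224) and by -0.20 ± 0.12 for Dex+E2 against Vehicle (adjusted p = 0.412).

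Tbx20, a T-box repressor and activator of muscle genes, gave 1.92, 1.86, 1.52 and 1.76 on Dex+E2 1 to 4 and 1.83, 1.79, 1.82 and 1.66 on Dex 1 to 4. It gave 1.92, 1.70, 1.71 and 1.42 on E2 1 to 4 and 1.95, 1.99, 1.78 and 1.77 on Vehicle 1 to 4. No label separated from another. The 12-array differences between labels lay between -0.15 (Dex against Vehicle) and 0.09 (Dex+E2 against Dex), and the Dex by E2 interaction was 0.21 (95% interval -0.06 to 0.49, adjusted p = 0.946).

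Mef2c gave 1.10, 1.03, 0.85 and 0.97 on Dex+E2 1 to 4 and 1.04, 1.01, 0.95 and 0.83 on Dex 1 to 4. It gave 0.87, 0.93, 0.85 and 0.86 on E2 1 to 4 and 1.19, 1.17, 0.86 and 0.91 on Vehicle 1 to 4. The E2 arrays were close together, towards the low end of the 16 values, and E2 minus Vehicle was -0.16 ± 0.08 on 16 arrays (adjusted p = 0.979) and -0.19 ± 0.10 on 12 (adjusted p = 0.713).

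Myocd gave 2.28, 2.17, 1.84 and 2.31 on Dex+E2 1 to 4 and 2.30, 2.22, 1.83 and 1.95 on Dex 1 to 4. It gave 2.24, 2.18, 1.69 and 2.00 on E2 1 to 4 and 2.33, 2.35, 1.92 and 1.94 on Vehicle 1 to 4. In every label the array numbered 3 was the lowest, and the arrays numbered 1 and 2 (2.17 to 2.35) lay above those numbered 3 and 4 (1.69 to 2.31) with the exception of Dex+E2 4. All of its 12-array intervals included 0.

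The 9 factors were next set against the Per1 split, in which the arrays keep no label. Gata6 was 3.62 to 3.82 (median 3.75) on the Per1-high arrays and 2.89 to 3.26 (median 2.96) on the Per1-low arrays, a difference of medians of 0.79 or 1.73-fold. It was the only gene of the 9 whose sets did not overlap. Over all 17771 genes, 359 (2.02%) lay wholly above and 367 (2.07%) wholly below, and 294 genes had a larger absolute difference of medians than Gata6. The median absolute difference over all genes was 0.09. Both other Gata6 probes moved the same way, by 0.76 for a probe above background on 16 arrays and by 0.73 for a dim probe above background on 11.

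Because the Gata6 values of the Per1 sets do not overlap, the same order holds inside each label by necessity, and only the sizes are given here. The array numbered 4, which is Per1-high in all 4 labels, exceeded the array numbered 3, which is Per1-low in all 4, by 0.85 in Dex+E2, 0.67 in Dex, 0.83 in E2 and 0.87 in Vehicle. The arrays numbered 1 and 2, which share their Per1 set within each label, differed by 0.01 in Dex+E2, 0.00 in Dex, -0.06 in E2 and 0.28 in Vehicle (array 2 minus array 1). Array number and the Per1 set cannot be told apart for arrays 3 and 4.

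Among the members whose sets overlapped, the Per1-high median was higher by 0.38 for Hand2, 0.30 for Tbx5, 0.15 for Myocd and 0.09 for Mef2c. Hand2 was 2.01 to 2.46 on Per1-high and 1.78 to 2.43 on Per1-low arrays, and its array 4 exceeded its array 3 by 0.59, 0.28, 0.41 and 0.23 in the labels Dex+E2, Dex, E2 and Vehicle. Tbx5 was 3.11 to 3.63 on Per1-high and 3.00 to 3.44 on Per1-low arrays. The Per1-high median was lower by 0.37 for Gata4 (-1.66 to -1.05 on Per1-high and -1.52 to -0.78 on Per1-low arrays), by 0.19 for Nr2f2, by 0.13 for Nkx2-5 and by 0.02 for Tbx20. Second probes, above background on all 16 arrays, had the same sign and smaller sizes: 0.32 for Hand2, 0.14 for Tbx5, 0.09 for Myocd and -0.23 for Gata4. Both other Tbx20 probes were above background on all 16 arrays. The brighter of them gave a difference of -0.07, close to the -0.02 of the brightest. The far dimmer one (Per1-high median -3.74), matched through another RefSeq transcript of Tbx20 than the brighter probes, gave -0.46. Nr3c1, the receptor's own gene, was lower on Per1-high arrays without overlap, at 1.63 to 1.94 on Per1-high and 1.96 to 2.25 on Per1-low arrays from its brightest probe. Its 3 other probes, above background on all 16 arrays, overlapped between the sets, with Per1-high medians lower by 0.34 to 0.47.

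**Figure D4:**
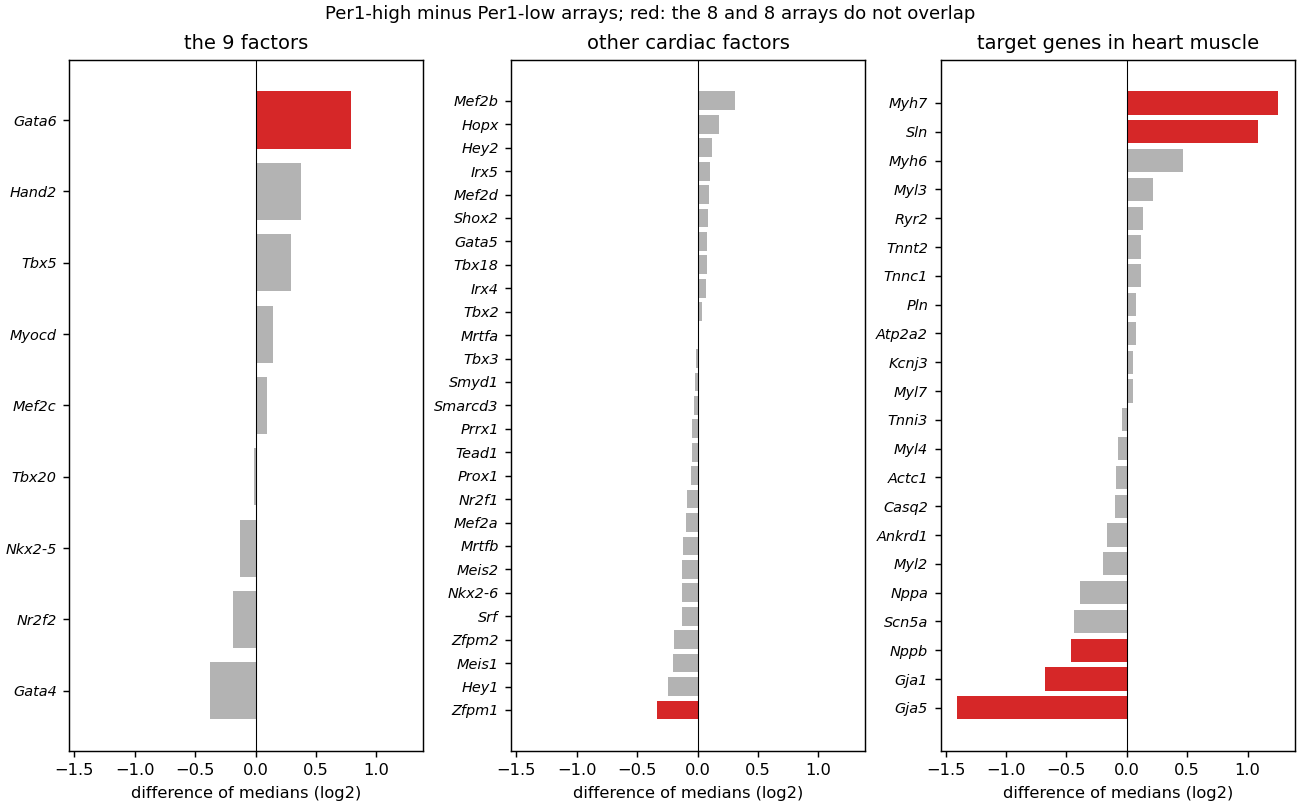
Difference of medians between the 8 Per1-high and the 8 Per1-low arrays (x axis, log2, Per1-high minus Per1-low) for the 9 factors, for 27 other cardiac factors and for 22 genes they act on. Red bars mark genes whose 8 and 8 arrays do not overlap: Gata6 at 0.79 among the 9, Zfpm1 at -0.34 among the other factors, and Myh7, Sln, Nppb, Gja1 and Gja5 among the genes acted on. Over all 17771 genes, 2.02% lay wholly above and 2.07% wholly below.

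Other cardiac transcription factors and cofactors were then read from a list of 32. Of these, 27 passed the filter on dim probes and were tested. In none of the 6 comparisons did any of the 27 pass the test, on 16 arrays or on 12. Their median 12-array difference was -0.09 for Dex+E2 against Vehicle, beside -0.02 over all genes, and -0.10 for Dex against Vehicle, beside -0.04 over all genes. Of the 27, 1 had Per1 sets that did not overlap, beside 2.02% of all 17771 genes wholly above and 2.07% wholly below. This was Zfpm1, which encodes the GATA cofactor FOG-1, at 3.89 to 4.48 on Per1-high and 4.51 to 5.10 on Per1-low arrays. Its 12-array difference was -0.65 ± 0.19 for Dex+E2 against Vehicle (adjusted p = 0.113) and -0.57 ± 0.19 for Dex against Vehicle (adjusted p = 0.139). Neither passed the test.

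Among 24 genes known to be acted on by these factors in heart muscle, 22 were tested (Bmp10 and Xirp2 were too dim). On 16 arrays 0 of 22 passed in every comparison. On 12 arrays 2 rose and 0 fell for Dex+E2 against Vehicle and for Dex+E2 against E2, and 2 rose and 2 fell for Dex against Vehicle. Over all 17771 genes the shares called in either direction were 2.59%, 1.93% and 2.43% in that order. Myh7 and Sln were the genes that rose in all 3. Myh7, the slow myosin heavy chain, rose by 1.38 ± 0.21 in Dex+E2 (adjusted p = 0.00527) and by 1.39 ± 0.21 in Dex (adjusted p = 0.00522) against Vehicle, and by 1.21 ± 0.21 in Dex+E2 against E2 (adjusted p = 0.0118). Sln, encoding sarcolipin, an atrial inhibitor of the calcium pump SERCA, rose by 1.28 ± 0.17 (adjusted p = 0.00204), 1.22 ± 0.17 (adjusted p = 0.00312) and 1.12 ± 0.17 (adjusted p = 0.00492) in the same 3 comparisons.

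The connexin genes went the other way. Gja5, the atrial connexin gene that TBX5 and NKX2-5 regulate in the mouse, fell by 1.46 on the log2 scale in Dex against Vehicle (adjusted p = 0.0288), and differed by -1.25 ± 0.30 in Dex+E2 against Vehicle, which missed the threshold (adjusted p = 0.0581). Gja1 fell by 0.71 in Dex against Vehicle (adjusted p = 0.0479) and differed by -0.63 ± 0.16 in Dex+E2 against Vehicle (adjusted p = 0.0755). On the Per1-high arrays Gja5 was -3.93 to -3.03, against -2.81 to -1.68 on the Per1-low arrays. The natriuretic peptide gene Nppb was -3.20 to -2.85 on Per1-high and -2.76 to -2.04 on Per1-low arrays, and did not pass the test in any comparison of labels. The median of the 22 genes was -0.02 for Dex+E2 against Vehicle and 0.00 for Dex against Vehicle, beside -0.02 and -0.04 over all genes.

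Markers of other cells were read beside Gata6, which vascular smooth muscle also expresses. Of 4 endothelial markers, Kdr alone was above background on all 16 arrays. It was 0.81 to 1.16 on Per1-high and 0.05 to 0.67 on Per1-low arrays, and on 12 arrays it rose by 0.66 in Dex+E2 and 0.60 in Dex against Vehicle (adjusted p = 0.0263 and 0.0443). The 4 endothelial markers summed to 1.78 to 2.26 times the 75th percentile on Per1-high arrays and 1.05 to 1.61 times on Per1-low arrays, while Cdh5 and Pecam1 were not well above background on any. Nearly all of that sum is Kdr, the only 1 of the 4 that passed the filter on dim probes. It therefore repeats the Kdr values and does not describe the endothelial markers as a set. Fibroblast markers summed to 29.0 to 47.9 times on Per1-high and 33.5 to 49.8 times on Per1-low arrays, and smooth muscle markers to 384 to 466 and 402 to 467 times. Most of the fibroblast sum is Col1a1 (Per1-high median 5.02, beside 2.48 for Col3a1). Nearly all of the smooth muscle sum is Acta2 and Tagln (8.16 and 7.27, beside 0.10 for Cnn1 and -3.68 for Myh11). Both sums therefore follow those genes and do not describe the lists as sets. Macrophage and leukocyte markers summed to 0.0625 to 0.101 times on Per1-high and 0.0663 to 0.134 times on Per1-low arrays. The part of cells with these markers in the Gata6 difference was not tested.

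For each factor the genes whose levels were most like its own over the 16 arrays were named by Pearson's r across symbol-named genes. These r are descriptions, since the arrays share slides and array numbers and the named genes are the highest of 13031. For Gata6, whose values fall into separate clusters, the most alike were Adarb1, Noct and Adamts1, and within the 8 Per1-high arrays their r was 0.47, 0.68 and 0.44, against 0.88, 0.91 and 0.75 within the 8 Per1-low arrays. Nkx2-5 was most like Il13ra1, Hsd3b1 and Actr1a (r = 0.97, 0.97 and 0.96), and Nr2f2 most like Serinc5, Smad7 and Ube2e3 (r = 0.96, 0.95 and 0.95). Gata4 was most like Top2a, a DNA topoisomerase of dividing cells, followed by Brd8 and Wnk1 (r = 0.94, 0.92 and 0.91). Hand2 was most like Gem, Tacc2 and St3gal4 (r = 0.92, 0.89 and 0.88), and Tbx20 most like Polb, Rbsn and Irf7 (r = 0.91, 0.85 and 0.85). Mef2c was most like Cbll1, Sec24d and Zfp599 (r = 0.90, 0.89 and 0.87). Myocd was most like Col4a2, Prkag1 and the SERCA gene Atp2a2 (r = 0.89, 0.87 and 0.87), and Tbx5 most like Ppargc1a, Dusp7 and Plpp3 (r = 0.85, 0.84 and 0.83).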

How the data were processed

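Total RNA of 16 HL-1 cultures was labelled with Cy3, per the labels' protocols, and the submitters' processing notes name Agilent Feature Extraction 12 for the scans. The processed signal is a background-subtracted intensity, per the file headers. A table deposited by the authors holds log2 values of the same arrays with a shared distribution (column median 4.698), made by a method not stated in the labels or headers, and it served as an alternative. Control spots and outlier spots were left out, spots of a probe averaged, and log2 intensity was centred on each array's 75th percentile (402 to 557 units). The number of arrays limits the precision.

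Accessions matched GRCm38.p6 RefSeq symbols for 28223 of 41174 probes. Probes well above background on all 4 arrays of a label were kept (24453), and the brightest per gene was used (17771 genes, 242 of them with a missing value on some array). limma 3.58.1 in R 4.3.3 (lmFit, eBayes with trend) was fitted to all genes, with Benjamini-Hochberg adjustment per comparison, two-sided, at 0.05, and was tested on simulated data. p-values measure the spread between these cultures. Groups came from labels. Same-numbered E2 and Dex+E2 arrays deviated together in 4 of 4 pairs (r = 0.11 to 0.46), so in that comparison the numbers pair arrays. The members and lists were chosen with earlier results of these data known. Named genes are the 9 members, called or non-overlapping list genes, and the 3 most alike genes per member.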

Additional observations from a re-analysis of the deposited data

Results flagged for a closer look

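In 3 cases a single array stood far from the other 3 of its label. Dixon's ratio passed its 95% critical value for 4 samples in 3 of the 36 groups formed by 9 genes and 4 labels, where chance marks about 1 group in 20. Gata6 was 2.97 on the array labelled Dex+E2 3, against 3.74, 3.75 and 3.82 on the other Dex+E2 arrays, and 3.74 on the array labelled E2 4, against 3.02, 2.95 and 2.91 on the other E2 arrays. Both are arrays on which Per1 goes against the label. Gata4 was -1.05 on the array labelled Dex+E2 4, against -1.53, -1.61 and -1.52 on the other Dex+E2 arrays, and there Per1 goes with the label. A second Gata4 probe, above background on all 16 arrays, gave -1.90, -1.94, -2.06 and -2.11 on Dex+E2 1 to 4. The high value on Dex+E2 4 therefore comes from the brightest probe alone.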

How the results depend on the processing

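On 16 arrays no member and no gene was called in the 6 comparisons with quantile normalization, the deposited table, normexp, other filters, another summary of probes, slide as a block, the replicate block or any array left out (0 in every case), with 2 exceptions among all genes: 45 for Dex against Vehicle within slide 1, and 1 for E2 against Vehicle with a variance prior without a trend. Over all labels same-numbered arrays deviated together in part (r from -0.16 to 0.46, over 0.1 in 13 of 24 pairs), and 9 of 16 arrays correlated best with their own number. All 6 pairs of arrays numbered 4 were over 0.1 (0.11 to 0.45). The replicate block changed no call on 16 arrays, where Gata6 differed by 0.32 for Dex against Vehicle, nor the call of Gata6 on 12. Without the 4 arrays against their label, 1 member (Gata6) was called in each of Dex against Vehicle, Dex+E2 against Vehicle and Dex+E2 against E2, among 432, 460 and 343 genes. The further settings of that 12-array fit were chosen after seeing the data, and 1 member was called in each comparison in all of them but normexp: quantile normalization called 584, 584 and 408 genes, the values in the deposited table called 565, 569 and 406, slide as a block 513, 138 and 142, and the replicate block 408, 478 and 375. Gata6 then differed by 0.67, 0.69 and 0.78 with the replicate block and by 0.72, 0.89 and 0.85 with slide as a block. normexp on the median signal (the mean signal was not used here) called 42, 34 and 31 genes and 0 members, and left 0 members without overlap between the Per1 sets, where 1 was found otherwise. Its fit failed, since the 25th percentile of spots after correction lay between 59.9 and 964 intensity units over arrays, beside 24.5 to 27 before, and it moved the median of all genes by up to 0.14 (E2 against Vehicle, at 0.12 beside -0.02), so it is no usable check. Leaving out 1 of the 12 arrays gave 201 to 563, 251 to 685 and 193 to 397 genes: the first count was 236, 201, 232 and 274 without Dex 1, Dex 2, Dex 4 and Vehicle 2, the next 251 and 295 without Dex+E2 2 and Vehicle 2, and the last 218, 217, 224 and 193 without Dex+E2 1, Dex+E2 2, E2 1 and E2 2.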

Other observations

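Values by array number belong to no comparison of labels. Over the 8 arrays numbered 1 and 2, Mef2c was 0.87 to 1.19 (median 1.03), against 0.83 to 0.97 (median 0.86) over the 8 numbered 3 and 4. Myocd was 2.17 to 2.35 (median 2.26) on the arrays numbered 1 and 2, against 1.69 to 2.31 (median 1.93) on those numbered 3 and 4, and Tbx20 was 1.70 to 1.99 (median 1.89), against 1.42 to 1.82 (median 1.74). The labels do not say what an array number stands for. Zfpm1 was 3.89 on the array labelled Dex+E2 4 and 3.97 on Dex 4, the lowest of the 16, and 4.98 and 5.10 on Vehicle 1 and 2, the highest.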
